A study of Mus musculus with 12 samples.

Results

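The Hox genes encode homeodomain transcription factors that lie in 4 clusters in the mouse genome. They were taken as the protein-coding genes of the GENCODE M21 annotation of mm10 (GRCm38) whose symbol is Hoxa, Hoxb, Hoxc or Hoxd followed by a number. This gave 39 of 21864 genes: 11 in the Hoxa cluster, 10 in the Hoxb cluster, 9 in the Hoxc cluster and 9 in the Hoxd cluster. A BMAL1-ChIP-seq peak was counted as a Hox peak when the start site nearest to its midpoint was that of a Hox gene. Of the 35822 peaks in 6 libraries, 20 were Hox peaks, and they merged into 7 of 16818 regions.

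The libraries came from primary mouse adult fibroblasts (MAFs), which the study grew from ear tissue of female adult C57BL6/J animals. Control MAFs were sham irradiated, and MAFs were made senescent, a lasting arrest of the cell cycle, with 20 Gy of X-rays. The study kept the irradiated MAFs in culture for some weeks after the X-rays. Cells of both groups were kept at 3% oxygen, were given 100 nM dexamethasone for 2 hours to bring their clocks into phase, and were fixed 12 hours after that (n = 3 libraries per group). The 6 input libraries of the series were not analysed here. The labels do not say that replicates came from separate animals or cultures, so the p-values apply to these libraries only and not to animals. The lists hold peaks and no expression, so the cells could not be checked against fibroblast markers.

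BMAL1 and its partner CLOCK form the activating arm of the circadian clock and bind the E-box CACGTG. Hox proteins set the identity of positions along the body axis, and the order of the genes in each cluster follows the order in which they are used along that axis. Fibroblasts of the adult body keep a pattern of Hox expression that reflects where in the body they came from.

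Of the 7 Hox regions, 5 held CACGTG, and the sequence around these sites is given for the Hoxb and Hoxc clusters to show the motifs that the called positions contained. Each is the forward strand of GRCm38, read 5′ to 3′, with 40 bases on each side of the motif. Capitals mark CACGTG and, in the Hoxb9 sequence, TGACTCA, a match to the AP-1 motif TGASTCA in which S stands for C or G. The windows were chr11:96413781-96413866 for Hoxb1, chr11:96260361-96260536 for Hoxb9 and chr15:102920870-102920974 for Hoxc13.
Hoxb1 downstream: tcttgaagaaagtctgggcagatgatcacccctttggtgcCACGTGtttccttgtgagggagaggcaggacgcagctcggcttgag
Hoxb9 upstream: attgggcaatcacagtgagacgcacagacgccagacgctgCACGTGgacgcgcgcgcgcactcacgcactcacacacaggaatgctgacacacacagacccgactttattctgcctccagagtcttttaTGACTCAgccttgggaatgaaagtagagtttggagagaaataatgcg
Hoxc13 promoter: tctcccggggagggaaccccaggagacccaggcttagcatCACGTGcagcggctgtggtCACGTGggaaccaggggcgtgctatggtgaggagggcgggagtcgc

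The number of peaks differed between libraries over the whole genome, with lists of 2794, 3349 and 10601 peaks in control replicates 1, 2 and 3 and of 4220, 9805 and 5053 peaks in senescent replicates 1, 2 and 3. Depth is unknown because the lists carry no reads, and the lack of a call at a gene is not evidence that BMAL1 was missing there. All 6 clock genes chosen as controls (Per1, Per2, Dbp, Nr1d1, Nr1d2 and Ciart) had a peak in every library. Peak scores were read as the −log10 of the q-value and are not on 1 scale across libraries. The position of a peak in its own list is therefore given as a rank, in percent from the best-scoring peak.

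To compare calls between groups, Hox peaks were counted in each library. Control replicates 1, 2 and 3 had 1, 1 and 3 Hox peaks, and senescent replicates 1, 2 and 3 had 4, 6 and 5. Every senescent library thus had more Hox peaks than any control library, with a mean of 5 ± 1 (SD, n = 3) against 1.67 ± 1.15 (SD, n = 3). The difference of 3.33 peaks gave p = 0.1 in an exact two-sided permutation test (adjusted p = 0.133 over the 8 results tested), and 0.1 is the smallest p that 3 libraries against 3 can give.

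Within each group, longer lists had as many Hox peaks as shorter ones or more. Between the groups, control replicate 3 had the longest list and 3 Hox peaks, while senescent replicate 1 had 4 Hox peaks in a list of 4220. As a share of all peaks, Hox peaks made up 0.0358%, 0.0299% and 0.0283% in control replicates 1, 2 and 3, and 0.0948%, 0.0612% and 0.0990% in senescent replicates 1, 2 and 3. The shares did not overlap, with 0.0850% ± 0.0207 (SD, n = 3) in senescent and 0.0313% ± 0.00395 (SD, n = 3) in control libraries (p = 0.1 in the exact two-sided permutation test, adjusted p = 0.133). When each list was limited to its 2794 best-scoring peaks, every control library had 1 Hox peak and every senescent library had 4, so that the difference in share was 0.107 percentage points in place of 0.0537. Above the median score of each list, the difference in share was 0.124 percentage points. In number of Hox peaks the difference was 3 at equal list length and 3.33 above the median, beside 3.33 in the full lists. The larger differences in share thus came with shorter lists and not with more Hox peaks.

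**Figure D1:**
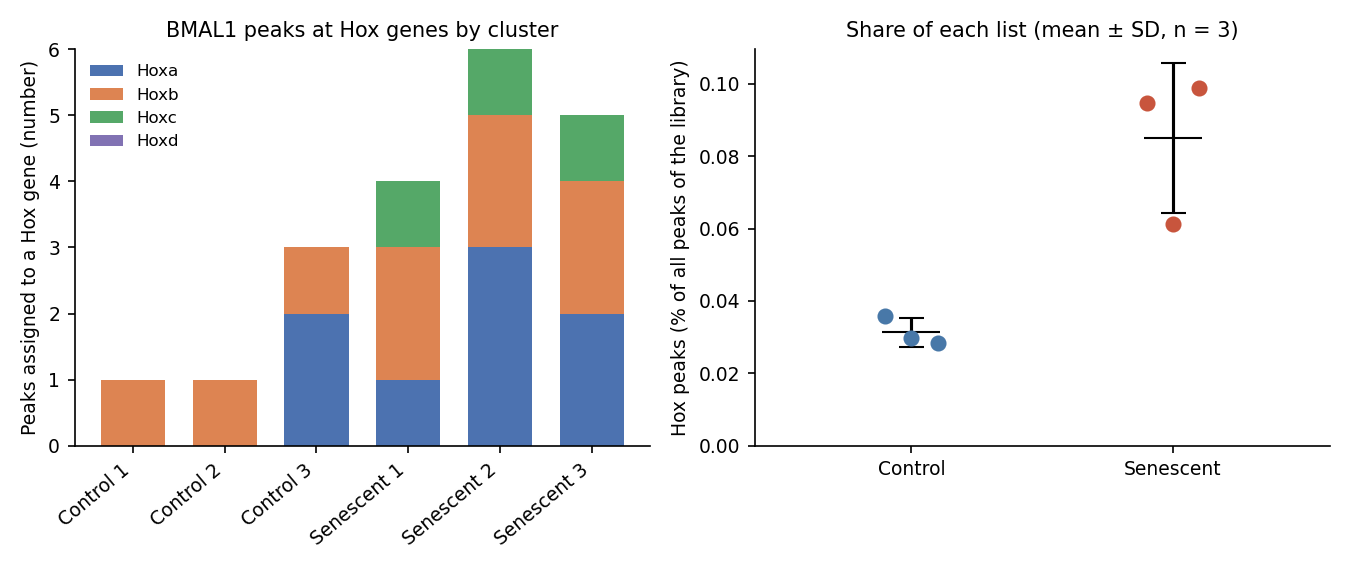
Left, number of peaks assigned to a Hox gene in each of the 6 BMAL1-ChIP-seq libraries, stacked by cluster (bars start at 0, and Hoxd has no peak in any library). Right, the same peaks as percent of all peaks of the library, with 1 point per library and the mean ± SD (n = 3 per group): control points lie between 0.0283% and 0.0358%, and senescent points between 0.0612% and 0.0990%.

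Few Hox genes carried a peak. At least 1 library had a peak at 5 of 39 Hox genes (12.8%), Hoxa2, Hoxb1, Hoxb9 and Hoxc13 among them, whereas 36.4% of all genes had one. The share of Hox genes with a peak was 2.56%, 2.56% and 7.69% in control replicates 1, 2 and 3, beside 9.32%, 10.8% and 25.3% of all genes. In each of the senescent libraries 4 Hox genes, or 10.3%, had a peak, beside 14.4%, 26.5% and 16.6% of all genes in replicates 1, 2 and 3. Hox genes were therefore below the share of all genes in every library of both groups. Their number was higher in each senescent than in each control library, by 2.33 genes on average (p = 0.1 in the exact two-sided permutation test, adjusted p = 0.133).

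In the Hoxa cluster, which spans 105.3 kb on chromosome 6, control libraries had 0, 0 and 2 Hoxa peaks and senescent libraries had 1, 3 and 2, so the groups overlapped (difference 1.33 peaks, exact two-sided permutation test with p = 0.3, adjusted p = 0.343). Both control peaks came from replicate 3, and without that library the difference was 2 peaks and the groups separated. The groups also separated, by 1 peak, when the lists were of equal length. Above the median score of each list the difference was 0.667 peaks, and without senescent replicate 2 it was 0.833 peaks, and in both cases the groups overlapped.

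Hoxa2, which acts in patterning the hindbrain, had a single peak, in control replicate 3 (chr6:52164777-52164920), 17 bp upstream of its start site and in an intron of the readthrough gene Gm28308. Its rank was 69.6%, and its window held no CACGTG.

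For the Hoxb cluster (chromosome 11, 173.9 kb), each control library had 1 peak assigned to a Hoxb gene and each senescent library had 2. This was a difference of 1 peak (p = 0.1 in the exact two-sided permutation test, adjusted p = 0.133). The peak that all 6 libraries shared was assigned to Hoxb1 and lay 45.3 kb outside the cluster. The peak found only in senescent libraries was assigned to Hoxb9. Neither lay near a Hoxb start site. Hoxb2, Hoxb3, Hoxb4, Hoxb5, Hoxb6, Hoxb7, Hoxb8 and Hoxb13 had no peak.

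The region assigned to Hoxb9, a gene of the posterior body (chr11:96260222-96260635), lay 11038 bp upstream of the start site, between Hoxb13 and Hoxb9 and within the noncoding gene Gm53. It was called in 3 of 3 senescent and 0 of 3 control libraries, with scores of 25.1, 28.5 and 20.3 in senescent replicates 1, 2 and 3. These peaks ranked at 13.5%, 6.05% and 14.1%, the best mean rank of the 7 Hox regions (11.2%). It was also the only Hox region with both motifs: CACGTG and TGACTCA stood 83 bases apart. Both motifs occurred together within 100 bp of the best peak midpoint in 2.12% of all regions. The share was 6.49% of all senescent-only regions and 12.7% of all regions with CACGTG there.

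The region assigned to Hoxb1 (chr11:96413568-96414024) was intergenic, 48007 bp downstream of the Hoxb1 start site and 50834 bp from that of Skap1, so that the distances to the genes on either side were nearly equal. It was the only Hox region called in all 6 libraries. Scores were 6.25, 4.81 and 10.1 in control replicates 1, 2 and 3 and 9.73, 16.7 and 15.9 in senescent replicates 1, 2 and 3. The ranks were 54.8%, 71.5% and 25.5% in control and 40.6%, 13.9% and 19.5% in senescent libraries, so the groups overlapped in rank. Peaks were next required to lie inside a cluster span, from its first to last Hox gene with 5 kb added each side. The Hoxb1 region dropped out while the Hoxc13 promoter stayed in. Under this rule a peak counted whichever gene its nearest start site belonged to. Hoxa peaks rose from 2 to 3 in control replicate 3 and senescent replicate 3, and from 3 to 4 in senescent replicate 2. In these libraries 5730596B20Rik, whose start site lies within the Hoxa span, had 1 peak each. Control libraries had 0, 0 and 3 peaks in all, and senescent libraries had 3, 6 and 5. The groups then met at 3 peaks (exact two-sided permutation test, p = 0.2).

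In the Hoxc cluster (chromosome 15, 115.8 kb) a single region was called, at the promoter of Hoxc13, which acts in hair and nail formation. It was called in 3 of 3 senescent and 0 of 3 control libraries, a difference of 1 peak (p = 0.1 in the exact two-sided permutation test, adjusted p = 0.133). The region (chr15:102920685-102921033) ends 70 bp before the Hoxc13 start site, which is also the edge of the cluster, and the midpoint of its best peak was 245 bp upstream. Scores were 14.3, 28.5 and 22.3 in senescent replicates 1, 2 and 3, at ranks of 26.6%, 6.05% and 12.5%. It held 2 copies of CACGTG with 13 bases between them, which lay 193 and 169 bp from the start site by their outer edges. At least 2 copies within 100 bp were found in 1.78% of all regions and in 4.79% of all senescent-only regions. The share was 10.7% among all regions with CACGTG there and 11.8% among promoter regions with CACGTG there. Hoxc4, Hoxc5, Hoxc6, Hoxc8, Hoxc9, Hoxc10, Hoxc11 and Hoxc12 had no peak.

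In the Hoxd cluster (chromosome 2, 96.8 kb) none of the 6 libraries had a peak at Hoxd1, Hoxd3, Hoxd4, Hoxd8, Hoxd9, Hoxd10, Hoxd11, Hoxd12 or Hoxd13. The nearest region on the Hoxd13 side was 89.2 kb away and on the Hoxd1 side 443.7 kb away, each called in 1 library. The cluster held 17 copies of CACGTG, none of them in a called region. On chromosomes 1 to 19, X and Y together, 1.53% of copies lay in one.

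**Figure D2:**
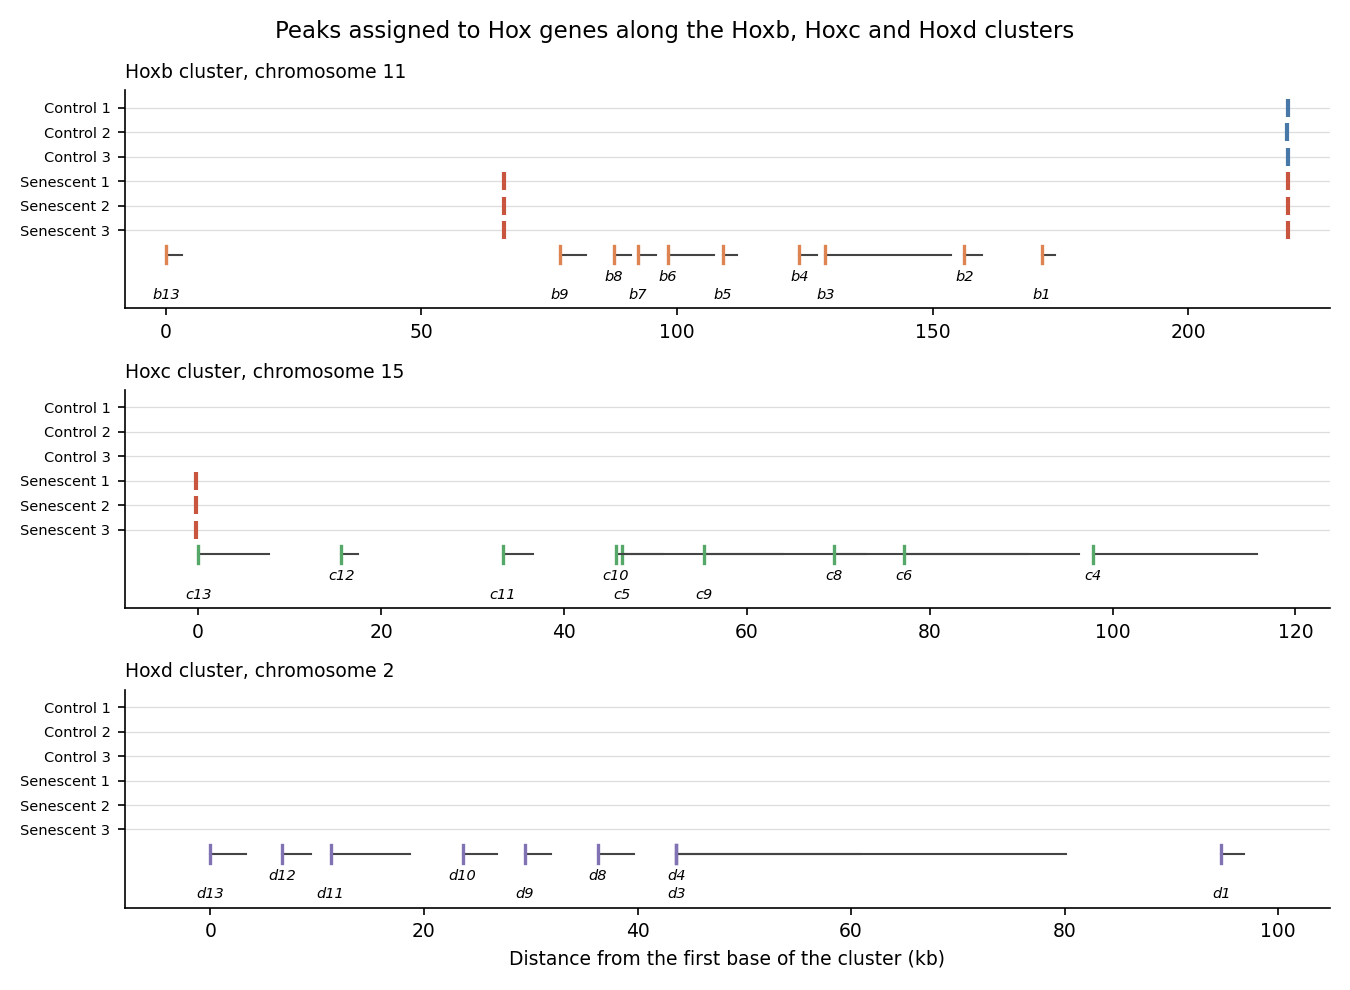
Position of each peak (coloured bars, 1 line per library) above the Hox genes of the Hoxb, Hoxc and Hoxd clusters, with distance from the first base of the cluster in kb on the horizontal axis. Black lines are annotated gene spans and the coloured ticks with labels their 5′ ends. Peaks lie upstream of b9, beyond b1 and just before c13, and no peak is drawn for Hoxd.

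By occupancy, 4 of the 7 Hox regions (57.1%) were senescent-only, meaning called in at least 2 senescent and 0 control libraries, against 9.44% of all regions. For the stricter class of 3 of 3 senescent and 0 of 3 control libraries the numbers were 3 of 7 (42.9%) and 3.73%. No Hox region was control-only, a class that held 5.86% of all regions, and 1 of 7 (14.3%) was called in all 6 libraries, against 6.58%. A region called in 1 library cannot be senescent-only, and such regions made up 1 of 7 Hox regions (14.3%) and 55.7% of all regions. Among regions called in at least 2 libraries, 4 of 6 Hox regions (66.7%) and 1588 of 7452 regions overall (21.3%) were senescent-only. With 7 regions in 3 clusters, some of which share a gene, these shares are a description. The senescent-only Hox regions numbered 3 when senescent replicate 2 or senescent replicate 3 was left out.

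By gene, Hoxb9 and Hoxc13 (5.13% of the 39) had more peaks in every senescent than in every control library, against 1.86% of all genes. The reverse order held for none of the Hox genes and for 0.668% of all genes. Hoxb1 was the only Hox gene with a peak in all 6 libraries (2.56%), where 5.14% of all genes had one.

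**Figure D3:**
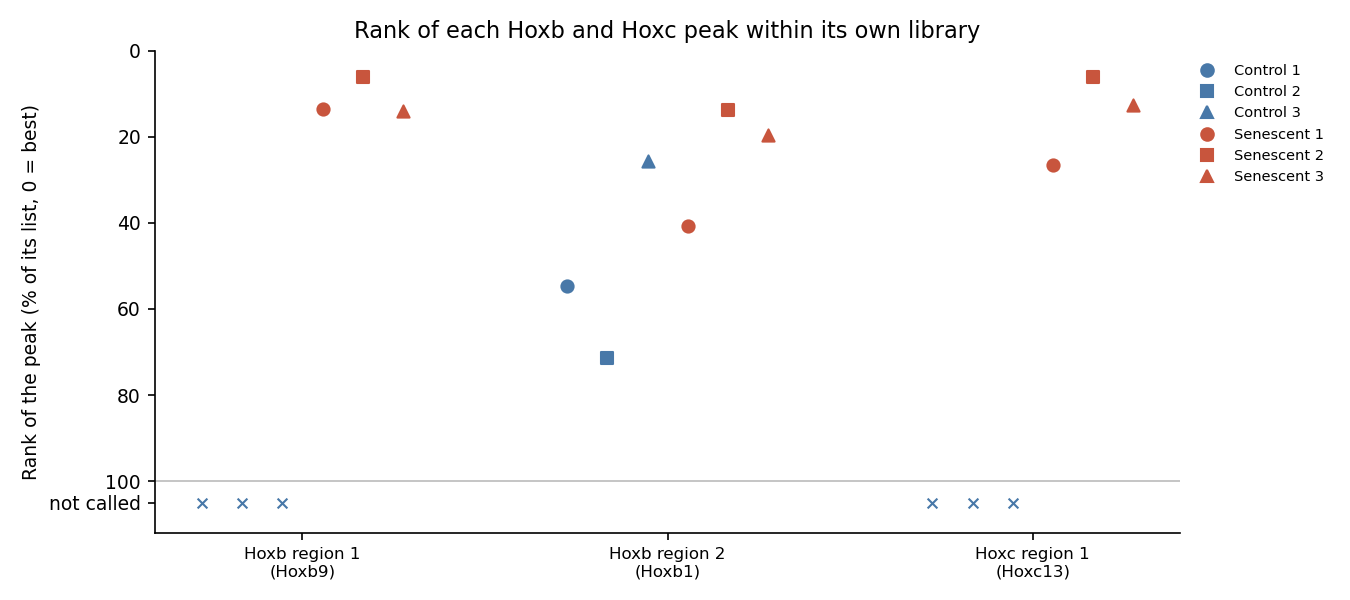
Rank of each peak within the list of its own library (vertical axis, in percent, best at the top) for the 3 regions of the Hoxb and Hoxc clusters, with crosses where a library had no call. The senescent peaks at the Hoxb9 region lie between 6.05% and 14.1% and those at Hoxc13 between 6.05% and 26.6%, and the Hoxb1 region has a call in every library, between 13.9% and 71.5%.

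The motifs of the Hox regions were set beside those of all regions. CACGTG lay within 100 bp of the best peak midpoint in 5 of 7 Hox regions (71.4%), in 16.7% of all regions and in 37.7% of senescent-only regions. The motif TGASTCA was found in 1 of 7 Hox regions (14.3%) and in 16.5% of all regions. Of the 5 Hox regions with an E-box 3 (60%) were senescent-only, and among all regions with an E-box the share was 21.3%. None of these 5 but 30.9% of all regions with an E-box were called in 1 library and so could not be senescent-only. Regardless of motif, 55.7% of all regions and 14.3% of Hox regions were called in 1 library. Regions called in 1 library thus held the E-box less often than all regions did, and the E-box shares were not adjusted for this.

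**Figure D4:**
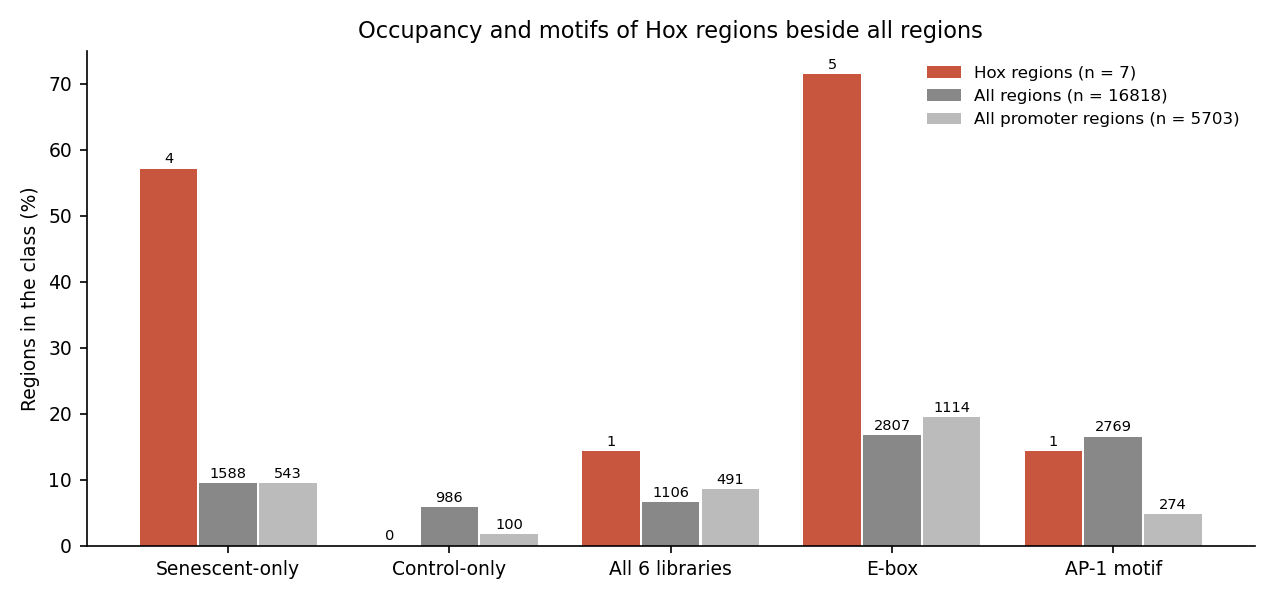
Percent of regions in each of 5 classes for the 7 Hox regions, all 16818 regions and the 5703 regions within 1000 bp of a start site, with the number of regions above each bar. Hox bars are higher than both others for senescent-only regions (57.1% against 9.44% and 9.52%) and for the E-box (71.4% against 16.7% and 19.5%), each resting on 7 regions. Regions called in 1 library made up 14.3% of Hox regions, 55.7% of all regions and 48.4% of promoter regions.

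Most E-boxes in the clusters had no called region. The 4 cluster spans without added sequence, 491.8 kb in all, held 71 copies of CACGTG, of which 4 (5.63%) lay in a region of any library. On chromosomes 1 to 19, X and Y together 1.53% of 267819 copies did. By cluster, 3 of 16 copies in Hoxa, 1 of 24 in Hoxb, 0 of 14 in Hoxc and 0 of 17 in Hoxd lay in a region. The E-boxes of the Hoxc13 promoter and of the Hoxb1 region fall outside these unextended spans and are not among them.

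At the promoters, the motif and the calls were counted gene by gene. CACGTG lay within 1000 bp of a start site in 22 of 39 Hox genes (56.4%) and in 32.2% of all genes. A region was called within 1000 bp of the start site of 2 of these 22 Hox genes (9.09%), Hoxc13 among them, and of 32.6% of all genes with the motif there. The 20 without one included Hoxa9, Hoxb4, Hoxb7, Hoxc4, Hoxc12, Hoxd4, Hoxd9 and Hoxd13, each with 2 copies. Counting peaks rather than regions, control replicates 1, 2 and 3 had 0, 0 and 1 Hox promoter peaks and senescent replicates had 2, 3 and 3 (difference 2.33 peaks, exact two-sided permutation test with p = 0.1, adjusted p = 0.133). At a promoter distance of 3000 bp control replicate 3 and senescent replicate 1 both had 2, and the groups overlapped (p = 0.2 in the same exact test).

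Genes that work with Hox proteins or border the clusters were examined in the same way. Of the 9 TALE homeodomain cofactors, which bind DNA together with Hox proteins, 6 (66.7%) had a peak in at least 1 library. Of all genes 36.4% had one, and the 6 cofactors included Meis1, Meis2 and Pknox1. Meis1 had 0, 0 and 2 peaks in control and 1, 3 and 1 in senescent replicates 1, 2 and 3. None of the 9 had more peaks in every senescent than in every control library, an order that 1.86% of all genes showed. The reverse order held for none of the 9 and for 0.668% of all genes. Of the Cdx genes, activators of Hox genes in the embryo, Cdx1 had 1 peak, in senescent replicate 2. Of the Evx genes, which flank the Hoxa and Hoxd clusters, Evx1 had 1 peak, in control replicate 3. Among the 49 genes outside the Hox family within 500 kb of a cluster, 28 had a peak in at least 1 library, where 36.4% of all genes had one, and 7 of the 49 (14.3%) had one in all 6 libraries, where 5.14% of all genes had one. More peaks in every senescent than in every control library were found for 1 of the 49 (2.04%), B4galnt2, a share near the 1.86% of all genes.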

How the data were processed

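BMAL1-ChIP-seq libraries were made by the study with tagmentation on beads (TAF-ChIP). The labels and the study's methods name different suppliers of the BMAL1 antibody. The authors mapped reads to mm10 with BWA v0.5.9, used Picard MarkDuplicates to drop duplicates and called peaks library by library with MACS2 (HiChIP pipeline), keeping those at or below an FDR of 1%. The MACS2 version and the use of input are not given in the sources used here. The deposited score was read as −log10 of the q-value, from its lowest values just above 2 (2.02 to 2.12). The list headers name 1 sequencing lane for both groups. The study's DiffBind comparison was not repeated.

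Here, in Python 3.11.15 with numpy 2.4.6 and pysam 0.24.0, peaks overlapping by at least 1 bp were merged into regions. Start sites were those of protein-coding transcripts of GENCODE M21 (basic set), promoters reached 1000 bp to each side, and motifs were matched exactly on both strands within 100 bp of a region's best-ranked peak midpoint. CACGTG and TGASTCA can share the bases TG, and copies were counted separately. Values per library were compared over all 20 arrangements of the group labels, with Benjamini-Hochberg adjustment over 8 tests, after a check of the scripts on simulated data. All 39 Hox genes entered the counts, genes and regions called in at least 2 libraries were to be described singly, with sequences for regions with a motif, and some of these results are not reported here. The members and lists were chosen with earlier results of these data known. Alternatives were other score limits, equal list length, gene starts, cluster spans extended by 5 kb, a distance limit of 50 kb, a 50% overlap, a 3000 bp promoter, leaving out each library, a replicate block and, added after seeing the data, every annotated transcript start.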

Additional observations from a re-analysis of the deposited data

How the results depend on the processing

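None of 146 recomputed results reversed, and 2 moved. Many of these could not have reversed, as the replicate block keeps the same differences. Hoxd peaks and control-only Hox regions were absent under every setting. No test here could pass 0.05, so separation of the groups was followed instead: for Hox peaks, their share and Hox genes with a peak it held in 8 of 9 recomputations with all 6 libraries, the exception being Hox peaks inside the extended cluster spans. A further 3 settings (gene starts, the 50 kb limit and every transcript start) changed no value in any library and say nothing about stability. The number of Hox regions called in all 6 libraries fell from 1 to 0 when the lower-scoring part of each list, up to its median, was removed and also when peaks had to lie inside an extended cluster span, which by construction leaves out the Hoxb1 region. With each library left out in turn, the difference between senescent and control libraries ranged from 2.83 to 4 Hox peaks, from 0.0467 to 0.0656 percentage points of all peaks, and from 2 to 3 Hox genes. For Hoxa it ranged from 0.833 peaks, without senescent replicate 2, to 2 peaks, without control replicate 3. With the replicate block, libraries of the same number were paired, and the difference of 3.33 Hox peaks gave p = 0.25 in an exact sign-flip test, the smallest that 8 arrangements can give. The deviations of same-numbered libraries from their group means, taken over regions, correlated at -0.122, 0.142 and 0.113. Control replicate 1 correlated best with senescent replicate 2 (0.162). The correlations of the control libraries with the senescent ones were proportional to each other, so this check cannot decide whether the numbers mark pairs. In the main tests the numbers were used only as names of the libraries. Depth is unknown, so a call missing from a short list cannot be told apart from weaker binding, and 7 regions allow no test over regions.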

Other observations

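In windows of 200 bp around the best peak midpoint, the median GC content was 58.8% over the 4 Hox promoter regions and 61% over all promoter regions, with medians of 11.5 and 14 CpG dinucleotides. Over all 7 Hox regions and over all regions the medians were 54.5% and 51%, with 9 and 4 CpG dinucleotides. Hox peaks were 111 to 438 bp long (median 284 bp), beside a median of 214 bp over all 35822 peaks. The clusters held 0.152 copies of CACGTG per kb in Hoxa, 0.138 in Hoxb, 0.121 in Hoxc and 0.176 in Hoxd, beside 0.101 on chromosomes 1 to 19, X and Y. These values are descriptions and were not tested.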
